A study of Rattus norvegicus with 57 samples.

Results

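Livers of rats given 80 mg/kg methapyrilene per day were compared directly with livers of rats given 30 mg/kg per day, both taken on day 15. The arrays were chosen by their dose and day alone, 5 at each dose, 10 of the 57 arrays in all, and all 10725 measured genes were tested. Every animal was a male Han Wistar rat, strain Crl:WI(Han), aged 8 to 10 weeks and weighing 170 to 200.0 g, housed singly with food at will. Methapyrilene was given by oral gavage in carboxymethylcellulose, and the vehicle control was dose 0. Of 6 animals assigned to a dose and day, 5 have an array on day 15, and each array stands for 1 animal. RNA from 10 mg of liver was read on Affymetrix Rat Genome 230 2.0 arrays. The comparison itself uses no control array. The 5 control arrays of day 15 serve to place both doses on a dose line and to show the level without drug.

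Methapyrilene is a histamine receptor antagonist that is known to injure the rat liver, chiefly around the portal tracts, and to damage hepatocyte mitochondria. Cells meet reactive metabolites with Nrf2, a transcription factor that turns on glutathione transferases, reductases and drug exporters. They meet shortage of amino acids or damaged mitochondria with ATF4, which turns on amino acid synthesis and transport. An injured liver also divides, expands cells with bile duct features and lowers the genes of the mature hepatocyte. Which of these groups grow in step with dose, and which do not, is the question that 2 doses on the same day can address.

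Signals are MAS5 values on a linear scale on which the trimmed mean of each array is 99.992. The median signal was 15.2 to 17.7 on the 30 mg/kg arrays and 16.8 to 19.2 on the 80 mg/kg arrays (exact permutation test over arrays, two-sided, p = 0.0635, 5 against 5, smallest possible p = 0.00794). The 3'/5' signal ratio of Gapdh, a measure of RNA integrity, was 1.49 to 1.58 at 30 mg/kg and 1.35 to 1.52 at 80 mg/kg (exact permutation p = 0.0317), and that of actin was 4.29 to 5.52 and 3.77 to 4.93 (exact permutation p = 0.135). The part of these differences in the results was not tested. Log2 signals of 2 arrays correlated at 0.97 to 0.98 within each dose and at 0.91 to 0.95 between the doses, over genes that are not independent of each other. In whole liver, fewer cells of a type and less RNA per cell cannot be told apart. With 5 arrays a group, precision is limited throughout. Single array values are given below in the order of replicates 1 to 5, those at 30 mg/kg before those at 80 mg/kg unless said otherwise, and differences are on the log2 scale as estimate ± SE.

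Most genes differed between the doses, and many differences were small. By limma with Benjamini-Hochberg adjustment, 5921 of 10725 genes (55.2%) passed at an adjusted p under 0.05. Of these 3963 (37.0%) were higher and 1958 (18.3%) lower at 80 mg/kg, and 2956 of the calls were under 1.5-fold. At least 2-fold differences were called for 764 genes (7.12%) upward and 425 genes (3.96%) downward. In 3112 genes (29.0%) every 80 mg/kg array lay above every 30 mg/kg array, and in 1462 (13.6%) below, which makes 42.6% without overlap. The median difference over all genes was 0.16 on the log2 scale, so the split depends on scaling: quantile normalization gave 3089 higher and 2381 lower, and shifting arrays to a common median gave 2820 and 2500. With these scalings the share of calls that were higher moved from 66.9% to 56.5% and 53%. Against control, 30 mg/kg changed 493 genes (4.6%) and 80 mg/kg changed 6354 genes (59.2%). Both share the control arrays, so these counts are only set side by side.

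**Figure D1:**
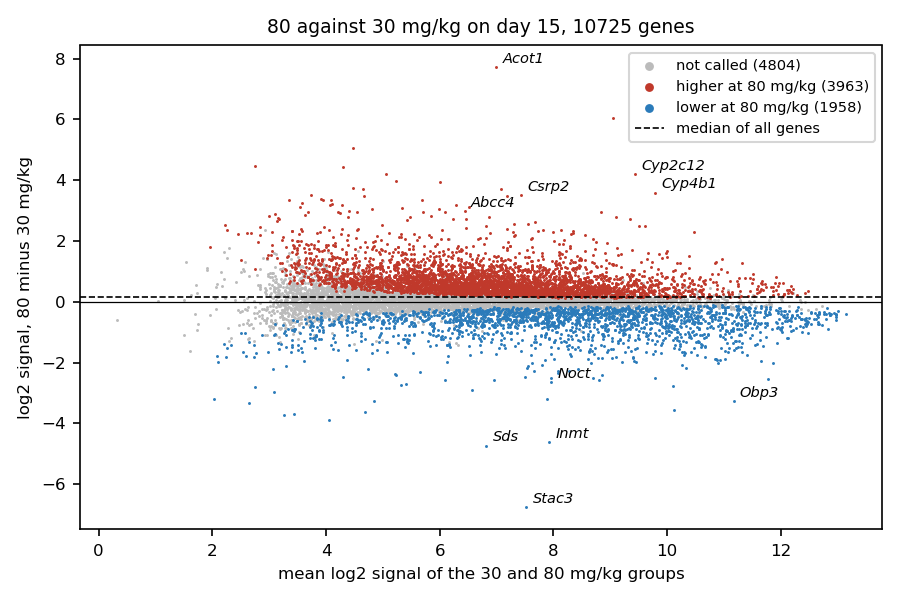
Difference in log2 signal between 80 and 30 mg/kg on day 15 (vertical axis) against the mean log2 signal of both groups (horizontal axis), 1 point per gene, with 3963 genes called higher in red, 1958 called lower in blue and the rest in grey. The dashed line is the median of all genes at 0.16, and the largest differences reach 7.71 upward (Acot1) and -6.75 downward (Stac3).

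The 12 largest rises and falls named here were taken among called genes whose arrays did not overlap between the doses and whose higher group had a mean of at least 100 signal units, so the gap between the groups is given by their choice. First among the rises stood Acot1, which hydrolyses fatty acyl-CoA. Its signals at 30 mg/kg were 11.2, 9.85, 6.83, 3.74 and 19.0, at 80 mg/kg 1652, 1769, 1925, 2514 and 1536, and in controls 0.14 to 4.77. The 30 mg/kg arrays were higher than most controls and the 80 mg/kg arrays far above both, and the difference was 7.71 ± 1.01 on the log2 scale (limma, adjusted p = 6.21e-09). All 30 mg/kg signals but 1 lay below 17.1, the median of all values, so the size of the fold depends on low signals: with 3.31 added to each signal the difference was 7.21. Gucy2c, the receptor guanylate cyclase for guanylin, had signals of 1.72, 11.7, 6.28, 0.58 and 11.7 at 30 mg/kg and 122, 119, 123, 226 and 90.6 at 80 mg/kg. Its difference was 5.07 ± 0.73 (adjusted p = 6.18e-08), or 3.98 with the added constant, again from a low base. Shc4, an adaptor of receptor tyrosine kinases, read 9.61, 7.56, 4.11, 3.54 and 26.3 at 30 mg/kg and 115, 175, 152, 154 and 120.3 at 80 mg/kg. The difference was 4.19 ± 0.61 (adjusted p = 6.89e-08), or 3.64 with the added constant.

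Cyp2c12, the cytochrome P450 that marks female rat liver, rose from a clear base. Its 30 mg/kg signals were 238, 210.4, 132, 129 and 128 and its 80 mg/kg signals 2231, 3719, 2463, 3959 and 2779, 18.3-fold higher (log2 4.20 ± 0.51, limma adjusted p = 1.22e-09). The controls lay at 80.6 to 850.2, and the 30 mg/kg group was not called against them (log2 -0.44, adjusted p = 0.711). Cyp4b1, another cytochrome P450, read 295, 239, 147, 147 and 709 at 30 mg/kg and 2819, 2701, 3417, 3223 and 3319 at 80 mg/kg (3.60 ± 0.29, adjusted p = 7.1e-15). It had also risen at 30 mg/kg, by 1.73 over control (adjusted p = 0.000222). Csrp2, a LIM domain protein known from stellate and smooth muscle cells, read 57.1, 43.1, 50.05, 63.8 and 45.5 at 30 mg/kg and 345, 1039, 523, 904 and 397 at 80 mg/kg, with controls at 52.4 to 69.5 (3.50 ± 0.22, adjusted p = 4.17e-18). The other large rises were in Tsx (3.97 ± 0.37), Gstm3 (3.94 ± 0.69), Akr1b8 (3.71 ± 0.33), Tubb6, a beta tubulin (3.49 ± 0.36), Bex4 (3.35 ± 0.22) and Dennd2d (3.18 ± 0.21).

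The deepest fall was in Stac3, an adaptor known from excitation-contraction coupling in skeletal muscle. At 30 mg/kg its signals were 1777, 1715, 2309.9, 1734 and 2079, just below the controls at 2344 to 3026 (log2 -0.44, adjusted p = 0.62). At 80 mg/kg they were 10.8, 14.4, 18.6, 8.29 and 71.6, far below every other array, a difference of -6.75 ± 0.41 (limma, adjusted p = 1.55e-18). Sds, serine dehydratase, which turns serine into pyruvate, fell from 616, 586, 527, 1080.1 and 324 to 17.6, 2.81, 25.2, 24.3 and 166 (-4.73 ± 0.51, adjusted p = 4.71e-11). Inmt, an N-methyltransferase of indoleamines, fell from 1512, 1509.6, 950.5, 989.8 and 1145 to 33.8, 24.0, 92.4, 31.8 and 120.2 (-4.61 ± 0.46, adjusted p = 5.95e-12). Inmt controls read 708 to 930, so its 30 mg/kg arrays lay above every control as well as every 80 mg/kg array. Obp3, a secreted carrier protein typical of male rat liver, read 6877, 7548, 7218, 7217 and 6752 at 30 mg/kg and 1595, 218, 947, 256 and 2708 at 80 mg/kg (-3.26 ± 0.35, adjusted p = 2.33e-11). Its 80 mg/kg animals spread over more than a 10-fold range, while the 30 mg/kg animals were nearly level. Next came Dhrs7l1, a short-chain dehydrogenase (-3.56 ± 0.34), the organic anion transporter Slc22a8 (-3.18 ± 0.27), Sez6 (-2.89 ± 0.27), Spink1l (-2.77 ± 0.23), the lipid phosphatase Mtmr7 (-2.73 ± 0.33) and Gucy1b2 (-2.72 ± 0.21). Inhba, which encodes the activin beta A subunit, read 283, 286, 338, 334 and 289 at 30 mg/kg and 52.1, 44.4, 50.5, 42.7 and 68.1 at 80 mg/kg (-2.59 ± 0.19, adjusted p = 3.86e-16), and it was already lower than control at 30 mg/kg (log2 -0.71, adjusted p = 0.0211). The last of the 12 largest falls, Noct, is described with the genes that peaked at 30 mg/kg.

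**Figure D2:**
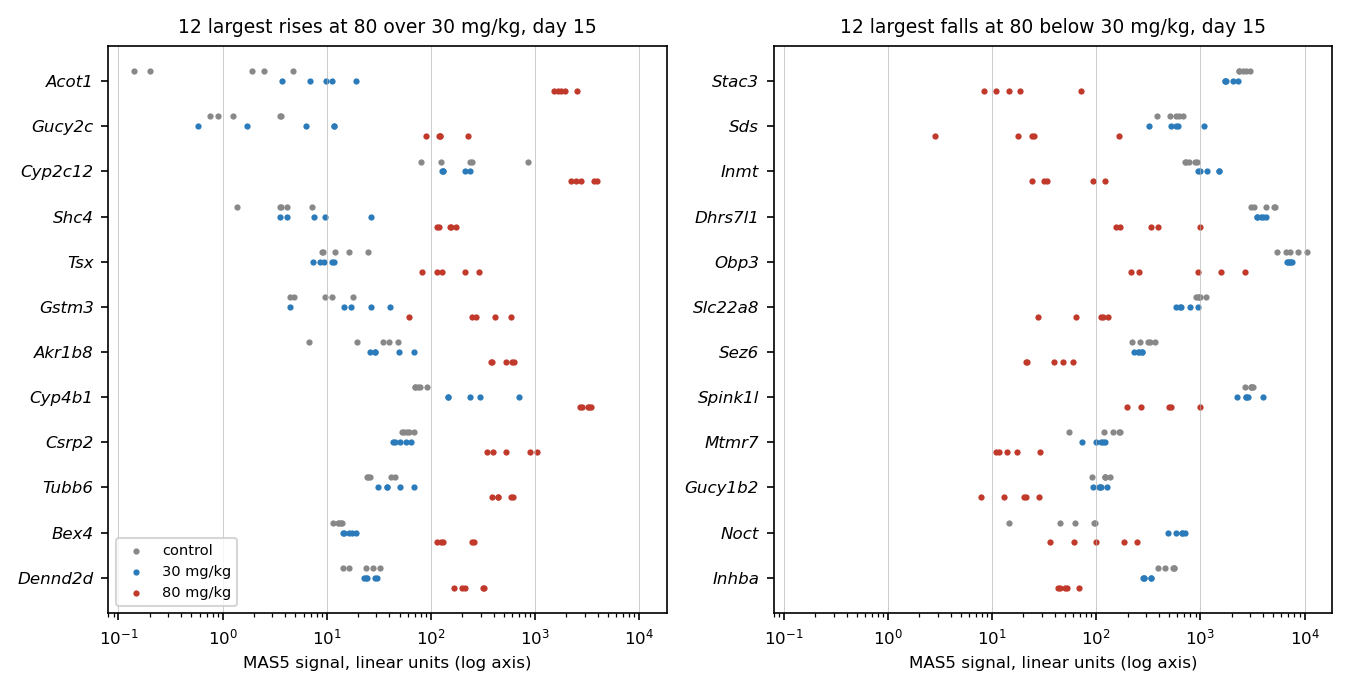
MAS5 signal (horizontal log axis) of the 12 genes with the largest rises (left) and the 12 with the largest falls (right) at 80 against 30 mg/kg on day 15, 1 point per array, grey for control, blue for 30 mg/kg and red for 80 mg/kg. Red points are apart from blue points in each gene by the choice of genes, and for most genes the blue points lie among the grey ones. The clearest exception is Noct, whose blue points lie to the right of both other groups, as those of Inmt do by less.

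Other animals, killed on other days, show how far these genes differed between the same doses at other times. Between 80 and 30 mg/kg, 2154 genes (20.1%) passed on day 4, 4946 (46.1%) on day 8 and 726 (6.77%) on day 24, which is 10 days after the last of 14 daily doses. Of the 12 largest rises, limma called 11 upward on day 4, 12 on day 8 and 3 on day 24. Of the 12 largest falls, it called 7 downward on day 4, 11 on day 8 and 0 on day 24, where 1 had an unadjusted p under 0.05. Stac3 differed by -2.28 on day 4 and -5.87 on day 8 (limma adjusted p = 0.000163 and 2.99e-15), and Acot1 by 4.49 and 7.40 (adjusted p = 0.00198 and 4.32e-08). Noct was the 1 large fall not called on day 8 (-0.73, adjusted p = 0.367).

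Among oxidative stress genes under Nrf2, 17 of 25 rose and 1 fell between the doses, with a median difference of 0.76 against 0.16 over all genes. Gstm3, a glutathione transferase, read 16.9, 14.6, 4.39, 26.4 and 40.7 at 30 mg/kg and 587, 410.3, 272, 61.7 and 250.7 at 80 mg/kg (3.94 ± 0.69, limma adjusted p = 3.1e-06). The lowest 80 mg/kg array, replicate 4, was still above the highest 30 mg/kg array. Akr1b8, an aldo-keto reductase, read 26.2, 29.1, 68.5, 29.0 and 49.2 and 599.6, 523, 386, 626 and 380.2 (3.71 ± 0.33, adjusted p = 1.78e-13). The conjugate exporter Abcc3 read 31.8, 25.2, 26.1, 21.97 and 19.4 and 227, 191, 176, 196 and 168, without overlap (2.96 ± 0.39, adjusted p = 6.86e-09). Glutathione peroxidase Gpx2 read 10.2, 12.1, 22.1, 0.64 and 7.46 and 41.5, 69.7, 31.9, 91.7 and 43.4 (2.96 ± 0.80, adjusted p = 0.00143), or 2.23 with the added constant. Gstp1, the transferase long used as a marker of altered rat hepatocytes, read 280.4, 287, 324, 252.1 and 413 and 1591, 846, 1705, 2085 and 3075 (2.48 ± 0.31, adjusted p = 1.84e-09). Its 80 mg/kg animals differed among themselves more than the 30 mg/kg animals did, without overlap between the doses. Pgd, of the pentose phosphate pathway, was the 1 member that fell (-0.41 ± 0.16, adjusted p = 0.0315), and it missed the threshold without any 1 of 30 mg/kg replicate 1 (adjusted p = 0.0658) or 3 (0.0786) or 80 mg/kg replicate 2 (0.0797) or 4 (0.0579).

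ATF4 and amino acid stress genes had a median of 1.29, the highest of the lists on the deposited scale, with 18 of 27 rising and 3 falling. After quantile normalization it was 1.14, below the 1.22 of biliary and progenitor markers. The cationic amino acid transporter Slc7a1 read 29.7, 27.9, 28.4, 35.1 and 58.9 at 30 mg/kg and 203, 246, 255, 223 and 219 at 80 mg/kg (2.73 ± 0.28, limma adjusted p = 8.38e-12). Phgdh, the first enzyme of serine synthesis, read 72.3, 63.9, 69.0, 84.7 and 98.1 and 405, 472, 481, 575 and 367, with controls at 1.52 to 11.04 (2.57 ± 0.71, adjusted p = 0.00186). Trib3, a pseudokinase that restrains ATF4, read 356, 289, 198, 352 and 566 and 1757, 1868, 2101, 1831 and 1763, with controls at 52.1 to 76.1 (2.48 ± 0.34, adjusted p = 1.55e-08). The 3 dose groups were fully separated in Phgdh and Trib3, and 30 mg/kg alone had raised them by 3.92 and 2.41 over control (adjusted p = 0.000449 and 6.12e-06). Across the list 14 of 27 genes were called at 30 mg/kg against control, and the median was 0.77 there. Cth, of cysteine synthesis, fell (-0.64 ± 0.13, adjusted p = 6.53e-05), although its 80 mg/kg arrays, at 2950.1 to 5319, overlapped the 30 mg/kg arrays at 5166 to 6111. Chac1, which degrades glutathione, fell too and is described below with the genes highest at 30 mg/kg. Aminoacyl-tRNA synthetases, which charge tRNAs and are ATF4 targets in part, rose in 13 of 16 members, and the rest did not pass (median 0.68). Sars1, for serine, read 288, 311, 406, 334 and 353 and 934, 1000.0, 979, 1093 and 1039 (1.58 ± 0.12, adjusted p = 1.07e-15), followed by Iars1 (1.38 ± 0.13) and Gars1 (1.15 ± 0.10). The probe sets of Iars1 disagreed in size, at 0.28 and 1.38, and 1 of 2 was called.

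The promoters of 4 of these risers hold the letters of the elements that Nrf2 and ATF4 are known to bind, and are shown because the genes of both lists moved together. Printed here are the 100 bases before the start in RefSeq's GRCr8 assembly, written 5′ to 3′ along the gene, with the match in capitals. The antioxidant response core was searched as TGACNNNGC and the CARE element as TGATGNAA, both on either strand. The search covered a longer promoter window, which began further upstream and ended past the start. The counts and shares of promoters given below are over that longer window.
Gpx2: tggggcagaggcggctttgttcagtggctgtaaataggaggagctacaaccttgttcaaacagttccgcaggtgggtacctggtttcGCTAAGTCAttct
Gstp1: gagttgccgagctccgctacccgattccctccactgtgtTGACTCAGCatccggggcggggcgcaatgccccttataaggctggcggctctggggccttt
Slc7a1: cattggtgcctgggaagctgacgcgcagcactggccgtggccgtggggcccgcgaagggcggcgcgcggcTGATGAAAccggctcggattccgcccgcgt
Trib3: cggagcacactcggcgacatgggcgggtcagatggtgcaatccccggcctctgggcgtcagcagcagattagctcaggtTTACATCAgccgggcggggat
These windows are chr6:101230034-101230133 (minus strand) for Gpx2, chr1:210769706-210769805 (minus strand) for Gstp1, chr12:11664388-11664487 (plus strand) for Slc7a1 and chr3:161275534-161275633 (minus strand) for Trib3. In Gpx2 and Trib3 the match is to the reverse complement of the motif, and in Gstp1 the match overlaps the AP-1 element TGANTCA. TGACNNNGC occurred in 3342 of 27457 promoters (12.2%), in 14.8% of those of tested genes, in 6 of 22 oxidative stress genes and in 4 of 15 that rose. TGATGNAA occurred in 1048 promoters (3.82%), in 2.08% of those of tested genes, in 5 of 24 ATF4 genes and in 3 of 15 that rose. A match describes the letters only.

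ER folding genes were mostly lower and mitochondrial chaperones mostly higher at 80 mg/kg. Of 21 ER folding and degradation genes 16 fell and 1 rose (median -0.40), among them Edem1 (-1.34 ± 0.19, adjusted p = 5.97e-08) and Sel1l (-0.99 ± 0.09, adjusted p = 2.55e-13) of ER-associated degradation and the stromal-derived factor homologue Sdf2l1 (-1.26 ± 0.13, adjusted p = 1.93e-11), all by limma. With quantile normalization 10 fell and 3 rose. Sel1l read 225, 204, 215, 215 and 214 at 30 mg/kg and 119, 98.8, 110.2, 106 and 105 at 80 mg/kg, about even within each dose. Dnajc3, a co-chaperone of BiP that inhibits PERK, rose (0.44 ± 0.07, adjusted p = 1.38e-06). Of 14 mitochondrial chaperones and proteases 9 rose and 1 fell (median 0.33, or 0.21 at a common median). Lonp1, the protease that clears damaged matrix proteins, read 485, 478, 468, 426 and 509.9 at 30 mg/kg and 987, 1227, 1195, 1289.5 and 1195 at 80 mg/kg, without overlap (1.31 ± 0.08, adjusted p = 2.64e-18). Spg7 (0.87 ± 0.16) and the chaperone Hspa9 (0.58 ± 0.10) rose, although Spg7 was called in 1 of 2 probe sets, at 0.28 and 0.87. Clpx, the unfoldase of the ClpP protease, fell (-0.99 ± 0.10, adjusted p = 7.27e-12). Cytosolic heat shock genes split, with 5 of 12 rising and 4 falling (median -0.06), from Hspb1, a small heat shock protein (1.45 ± 0.33, adjusted p = 0.000169), to Hsph1 (-0.69 ± 0.17, adjusted p = 0.000698). In the proteasome list 5 of 25 rose and 5 fell (median 0.02), or 13 and 3 with quantile normalization. Over all genes 37.0% were called higher and 18.3% lower on the deposited scale.

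Among genes of p53 and of the cell cycle, more were called higher than lower at the higher dose. Of 15 p53 targets 11 rose and 2 fell (median 0.78). Ccng1, cyclin G1, read 162, 179, 129, 162 and 167 at 30 mg/kg, 441, 546, 438, 500.4 and 484 at 80 mg/kg and 148 to 187 in controls, so only the higher dose stood apart (1.60 ± 0.14, limma adjusted p = 1.09e-13). Ddit4l, an inhibitor of mTOR (1.91 ± 0.38), and the nuclease Aen (1.51 ± 0.16) rose as well, and Sesn1, a stress-inducible antioxidant protein, fell (-0.83 ± 0.15, adjusted p = 5.07e-06). Of 27 mitosis genes 17 rose (median 1.15), and of 22 DNA replication genes 13 rose (median 0.62), the rest not passing. After quantile normalization 10 and 8 rose, with medians of 0.95 and 0.42 against 0.05 over all genes. With a common median 12 and 10 rose. For comparison, 37.0% of all genes were called higher on the deposited scale, and 3089 and 2820 of 10725 with these other scalings. Signals were low: the spindle checkpoint kinase Ttk read 2.84, 5.48, 9.75, 0.35 and 5.95 at 30 mg/kg and 18.5, 20.3, 18.6, 22.7 and 42.7 at 80 mg/kg (2.88 ± 0.93, adjusted p = 0.00742), or 1.83 with the added constant. Cyclin A2, Ccna2, read 31.8, 21.6, 34.2, 6.70 and 57.1 and 104, 57.4, 66.8, 53.8 and 102, with 1 array of each dose overlapping (1.59 ± 0.50, adjusted p = 0.00604). Without 30 mg/kg replicate 4 the adjusted p of Ttk was 0.0558 and that of Ccna2 0.053, and that of Cdkn3 (1.68 ± 0.61) reached 0.07 without it and 0.0587 and 0.0523 without 30 mg/kg replicate 3 and 80 mg/kg replicate 5. The replication factors Rfc3 (1.31 ± 0.16, adjusted p = 1.25e-09) and Cdt1 (1.35 ± 0.31, adjusted p = 0.000236) rose too. Cytosolic ribosomal protein genes rose in 19 of 19 members (median 0.40), with Rps3 at 0.75 ± 0.09 and Rplp0 at 0.62 ± 0.08. With quantile normalization 19 rose with a median of 0.69, and at a common median 15 rose with a median of 0.28.

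Genes of amino acid breakdown were lower in most members. Of 33 urea cycle and amino acid genes 29 fell and 1 rose, with a median of -0.97, or -0.73 after quantile normalization, led by Sds. Hal, histidase, the first step of histidine breakdown, read 1113, 1058, 1034, 1136 and 1073 at 30 mg/kg and 173, 97.5, 169, 158 and 462 at 80 mg/kg (-2.56 ± 0.23, limma adjusted p = 1.79e-13). Proline dehydrogenase Prodh read 928, 871, 944, 714 and 679.6 and 216, 139, 204, 169.9 and 319 (-2.02 ± 0.19, adjusted p = 8.32e-13). Neither overlapped between the doses, and 30 mg/kg was not called against control in either (log2 -0.11, adjusted p = 0.84 for Hal, and 0.27, adjusted p = 0.466 for Prodh). Asl, argininosuccinate lyase of the urea cycle, was the member that rose, from 1571, 1661, 1622, 1398 and 1265 to 1992, 2424, 2449.7, 2456 and 2384, above controls at 784 to 1176 (0.64 ± 0.12, adjusted p = 1.91e-05).

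Lists of fat and sugar metabolism held more genes that fell than rose, while 37.0% of all genes were called higher and 18.3% lower. Of 25 fatty acid oxidation and ketone genes 5 rose and 11 fell (median 0.00), or 10 and 10 with quantile normalization, with Acot2, a mitochondrial acyl-CoA thioesterase (2.29 ± 0.22), and the trifunctional protein subunit Hadhb (0.70 ± 0.09) up beside Acot1. Hadh, the short-chain hydroxyacyl-CoA dehydrogenase (-1.11 ± 0.08), and the ketone body enzyme Bdh1 (-1.08 ± 0.11) were down, each by limma with adjusted p of 2.14e-11 or less. Of 19 fatty acid and triglyceride synthesis genes 12 fell and 1 rose (median -0.63). They included the lipogenic regulator Thrsp (-2.18 ± 0.29), liver pyruvate kinase Pklr (-2.02 ± 0.23) and stearoyl-CoA desaturase Scd (-1.73 ± 0.40). Of 17 cholesterol synthesis genes 8 fell and the rest did not pass (median -0.27), led by the sterol isomerase Ebp (-0.82 ± 0.11). Of 17 glucose and fructose genes 11 fell and 3 rose (median -0.31), with fructokinase Khk (-1.25 ± 0.10) and liver glycogen phosphorylase Pygl (-1.17 ± 0.10) among those that fell. In the TCA cycle 5 of 15 fell and 3 rose (median -0.03), with pyruvate carboxylase Pc down (-1.23 ± 0.12) and citrate synthase Cs up (0.37 ± 0.10), and 4 fell and 8 rose with quantile normalization. The respiratory chain list has no settled direction: 14 of 28 fell and 3 rose on the deposited scale (median -0.16), and 1 fell and 14 rose with quantile normalization (median 0.09). Its differences were small, such as Ndufa1 of complex I at -0.37 ± 0.06, Sdha of complex II at -0.34 ± 0.06 and Uqcrc1 of complex III at 0.27 ± 0.06. Ndufa1 and Sdha lost their calls with quantile normalization (adjusted p = 0.442 and 0.09) and Uqcrc1 at a common median (0.173).

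The genes by which the mature hepatocyte handles drugs and bile acids were mostly lower at 80 mg/kg. Of 23 xenobiotic cytochrome P450 genes 19 fell and 1, Cyp2c12, rose (median -0.73, or -0.43 after quantile normalization). Cyp2c11, the main male P450 of rat liver, read 6529, 6384, 6594, 6058 and 5937 at 30 mg/kg and 2035, 935, 2764, 633 and 3499 at 80 mg/kg (-1.95 ± 0.22, limma adjusted p = 1.12e-10). Cyp2c7 read 7786, 7485, 8069, 6903 and 7139 and 3229, 426, 3379.5, 1046 and 4438 (-2.01 ± 0.31, adjusted p = 3.52e-07). In both genes 80 mg/kg replicates 2 and 4 were the lowest arrays, and the same animals were lowest in Obp3. Male-biased liver genes fell in 15 of 16 members (median -1.45), led by Obp3, Slc22a8 and carbonic anhydrase Car3 (-2.55 ± 0.22, adjusted p = 1.05e-13). Of 24 bile acid genes 16 fell and 4 rose (median -0.91). The uptake carrier Slc10a1 read 3980.0, 4182, 4179.6, 3998 and 3685 and 1559, 555, 1332, 756 and 1688 (-1.89 ± 0.16, adjusted p = 1.47e-14), and Slco1a4, another uptake carrier, fell as well (-1.67 ± 0.18, adjusted p = 2.57e-11). The basolateral exporter Abcc4 went the other way, from 33.1, 31.6, 21.4, 29.9 and 40.5 to 215, 248.7, 193, 343 and 249.6, with controls at 28.8 to 46.3 (3.00 ± 0.19, adjusted p = 9.46e-18).

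Secreted proteins of the hepatocyte were lower as a group. Of 30 plasma protein and coagulation genes 29 fell (median -0.64), with prekallikrein Klkb1 at -1.42 ± 0.15 and apolipoprotein Apoa4 at -1.36 ± 0.24. Of 21 acute phase genes 17 fell and 1 rose (median -0.67). The protease inhibitor Serpina3n read 3715, 3798, 3724, 4226 and 3502 at 30 mg/kg and 1513, 613, 1118, 589.7 and 1617 at 80 mg/kg (-1.92 ± 0.17, limma adjusted p = 8.66e-14). Il1rn, the interleukin-1 receptor antagonist, fell from 33.5, 29.7, 36.2, 47.9 and 30.2 to 7.73, 1.12, 0.72, 1.65 and 12.0 (-3.74 ± 0.66, adjusted p = 3.53e-06), or -2.48 with the added constant. Lcn2, lipocalin 2, rose (1.48 ± 0.25, adjusted p = 1.35e-06). Of 19 complement genes 16 fell and 2 rose (median -0.86), led downward by the terminal component C6 (-2.33 ± 0.29), followed by C9 (-1.40 ± 0.13) and mannose-binding lectin Mbl1 (-1.40 ± 0.11). Among 21 hepatocyte transcription factors 10 fell and 1 rose (median -0.42), with Foxa1 (-0.93 ± 0.16, adjusted p = 2.3e-06) and Bcl6 (-1.74 ± 0.52, adjusted p = 0.00396) lower and Esrra, a regulator of mitochondrial genes, higher (1.18 ± 0.20, adjusted p = 1.91e-06). The Bcl6 arrays overlapped, at 93.2 to 304 at 30 mg/kg and 26.55 to 172.5 at 80 mg/kg. Of 18 iron, zinc and copper genes 7 fell and 3 rose (median -0.21), with Alas1, the rate-limiting enzyme of haem synthesis, down (-1.64 ± 0.26) and metallothionein Mt2A up (1.30 ± 0.44, adjusted p = 0.0102). Of 22 extracellular signals 6 rose and 6 fell (median 0.03), with Igfbp2, a binding protein of insulin-like growth factors (2.20 ± 0.27), and the stress cytokine Gdf15 (1.32 ± 0.41, adjusted p = 0.00502) up and Inhba down. Among all genes 37.0% were called higher and 18.3% lower. With quantile normalization the plasma protein, acute phase and complement medians were -0.36, -0.35 and -0.59, and at a common median -0.76, -0.80 and -0.98.

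**Figure D3:**
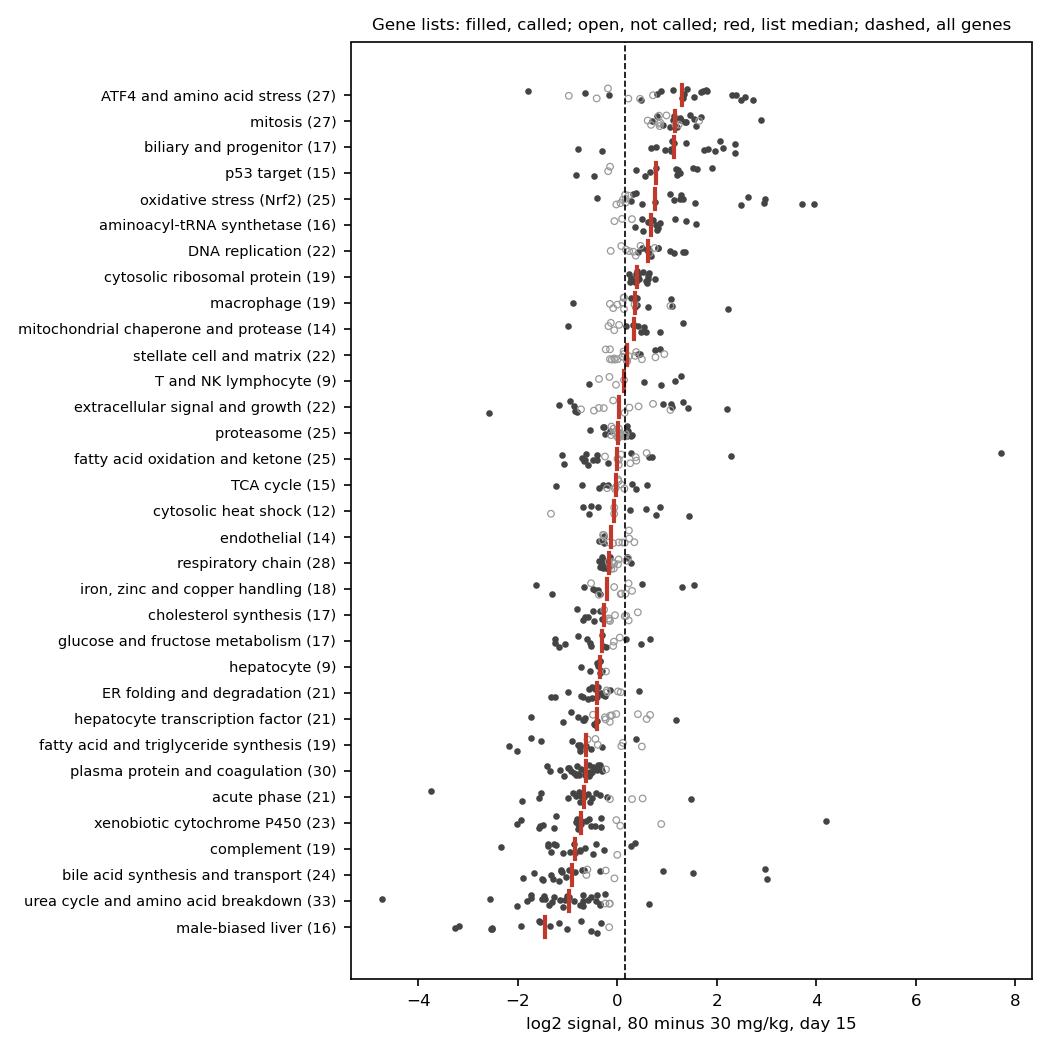
Difference in log2 signal between 80 and 30 mg/kg on day 15 (horizontal axis) for each gene of the lists with at least 9 measured genes (vertical axis, number measured in brackets), filled where limma called the gene and open where it did not. Red bars are list medians, from 1.29 for ATF4 genes to -1.45 for male-biased genes, and the dashed line is the median of all genes at 0.16.

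Markers of cell types moved with these groups. The 9 hepatocyte markers summed to 57055 to 66044 at 30 mg/kg and 40908 to 58078 at 80 mg/kg (exact permutation test, two-sided, p = 0.0238, 5 against 5). Of them 8 fell (median -0.36), such as Apob (-0.56 ± 0.12) and Hnf4a (-0.42 ± 0.08), but with quantile normalization 2 fell and the median was -0.01, and Hnf4a lost its call (adjusted p = 0.273). Their part in the lower drug, bile acid and plasma protein genes was not tested. Biliary and progenitor markers summed to 4337 to 6009.8 and 7933 to 10152 (exact permutation p = 0.00794, the smallest possible), and 15 of 17 rose and 2 fell (median 1.14). Gamma-glutamyl transferase Ggt1 read 36.3, 40.3, 24.9, 18.4 and 30.9 at 30 mg/kg and 138, 202, 149, 155 and 117 at 80 mg/kg (2.36 ± 0.28, limma adjusted p = 4.52e-10), and the progenitor surface protein Cd24 read 27.5, 24.0, 32.1, 13.7 and 26.0 and 60.6, 169.5, 85.5, 183 and 73.7 (2.12 ± 0.24, adjusted p = 2.25e-10). The tight junction gene Cldn7 rose (2.36 ± 0.70, adjusted p = 0.00389) with overlap, since its 80 mg/kg arrays ran from 15.6 to 114 and its 30 mg/kg arrays from 1.97 to 16.6. Ggt1, Cd24 and Cldn7 make up a small part of the summed signal, and the members that make up most of it are not shown. The part of duct cells, progenitors or hepatocytes in the higher sum was not tested. The defining duct keratin Krt7 lay below 17.1 on all 10 arrays, and Onecut2, a factor of liver and duct development, fell (-0.79 ± 0.12), in 3 of its 4 probe sets.

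Summed markers of macrophages, stellate cells and endothelium overlapped between the doses. Macrophage markers summed to 6825 to 8770.1 at 30 mg/kg and 7651 to 10104 at 80 mg/kg (exact permutation test, two-sided, p = 0.183, 5 against 5), with 9 of 19 rising and 1 falling (median 0.34), or 6 rising after quantile normalization and 4 at a common median. For comparison, 37.0% of all genes were called higher on the deposited scale, and 3089 and 2820 of 10725 with these other scalings. Ccr2 and Trem2 lay below 17.1 on all 10 arrays. Gpnmb, a glycoprotein of lipid-laden macrophages, read 173, 171, 140.0, 122 and 136 and 529, 733, 642, 765 and 815 (2.23 ± 0.25, limma adjusted p = 1.63e-10). Galectin Lgals3 (1.09 ± 0.20) and osteopontin Spp1 (1.08 ± 0.34), which duct cells also make, rose, while the lipopolysaccharide receptor Cd14 fell, from a range of 1476 to 1581 at 30 mg/kg to one of 671 to 975 at 80 mg/kg (-0.90 ± 0.13, adjusted p = 9.53e-08). Stellate cell and matrix markers rose in 4 of 22, a smaller share than the 37.0% of all genes (summed level, exact permutation p = 0.357), and after quantile normalization 3 rose and 2 fell. Among them were Timp1 (0.85 ± 0.29, adjusted p = 0.0109) and Vim (0.46 ± 0.16, adjusted p = 0.0144), both overlapping between doses. Timp1 lost its call with quantile normalization (adjusted p = 0.0572) and without 80 mg/kg replicate 4 (0.06), and Vim at a common median (0.0827) and without 80 mg/kg replicate 2 (0.0596) or 4 (0.0659). Endothelial markers fell in 3 of 14, or 7 after quantile normalization and 6 at a common median (summed level, exact permutation p = 0.246). The falls were small, as in Kdr (-0.26 ± 0.10, adjusted p = 0.0183), which lost its call with the mean of its probe sets (0.246) and without 80 mg/kg replicate 2 (0.0634). Stab1 read 70.4 to 78.7 at 30 mg/kg and 53.65 to 63.1 at 80 mg/kg, and Tek 128 to 153 and 100.6 to 127, both without overlap.

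Lymphocytes and blood cells were at the edge of detection or changed in small lists. Of T and NK cell markers 4 of 9 rose and 1 fell, near the 37.0% and 18.3% of all genes, with a median of 0.13, or -0.01 after quantile normalization. The kinase Zap70 was among those that rose (1.16 ± 0.29), while 9 others, Cd3e and Cd8a among them, lay below 17.1 on all 10 arrays (summed level, exact permutation p = 0.198). Mast cell markers summed to 95 to 115 at 30 mg/kg and 131 to 184 at 80 mg/kg (exact permutation p = 0.00794). Only 1 of 4 was called higher, a smaller share than the 37.0% of all genes. It was Hdc, at 26.9 to 35.2 and 48.9 to 85.8, so the sum rests largely on 1 gene. Another 6 markers, Kit and Tpsab1 among them, lay below 17.1 on all 10 arrays. Red blood cell markers summed to 2883 to 3566 and 1161 to 2426 (exact permutation p = 0.00794), with 3 of 5 falling and 4, Ahsp and Hemgn among them, below 17.1 on all 10 arrays. Hbb, beta globin, made up most of this sum, so the sum is not a reading apart from it. It read 3451, 3234, 3269, 2919 and 2790.1 at 30 mg/kg and 2361, 1177, 1305, 1102 and 2035 at 80 mg/kg (-1.04 ± 0.24, limma adjusted p = 0.000214). Of 5 B and plasma cell markers 1 rose and 1 fell, and the 1 neutrophil marker measured was not called. Their summed levels overlapped (exact permutation p = 0.437 and 0.357).

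**Figure D4:**
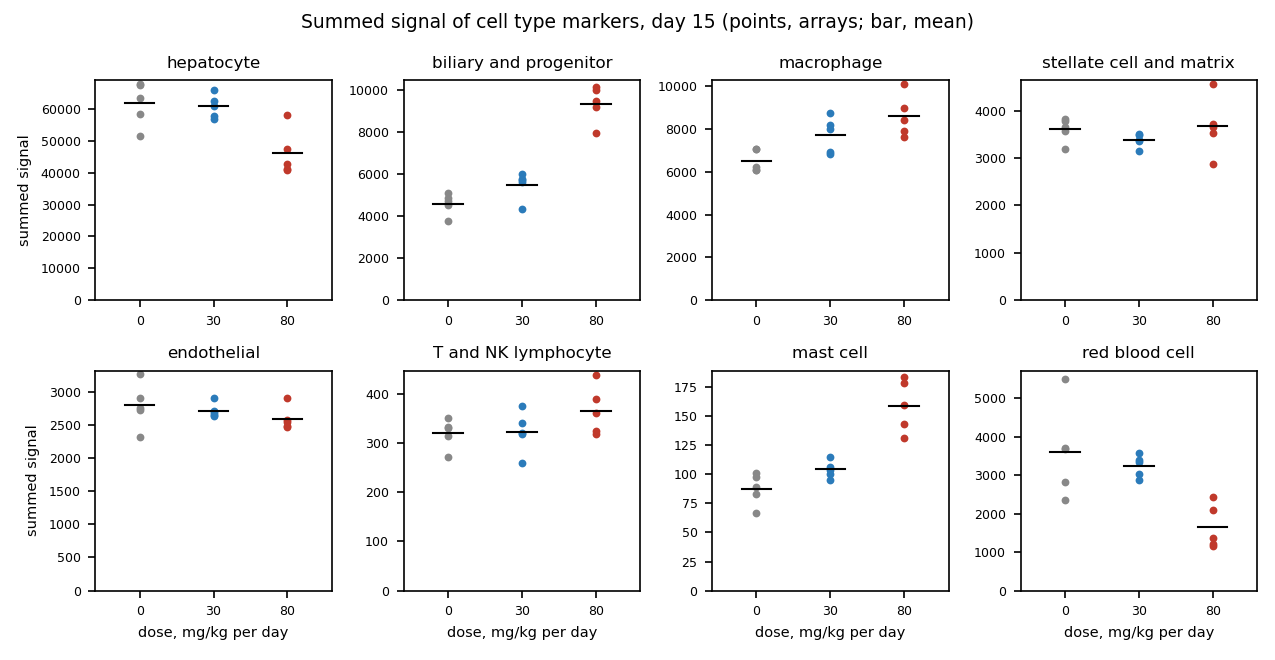
Summed MAS5 signal of the markers of each cell type (vertical axis from 0) against dose in mg/kg per day (horizontal axis) on day 15, 1 point per array with the mean as a bar. Biliary, mast cell and red blood cell sums of the 80 mg/kg arrays do not overlap those of the 30 mg/kg arrays, and the hepatocyte sums at 80 mg/kg reach from 40908 to 58078.

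To ask which genes were not proportional to dose, the day 15 controls were taken as dose 0 and each gene was compared with a straight line of log2 signal against dose. On that line 30 mg/kg gives 37.5% of the change seen at 80 mg/kg, since the doses differ 2.67-fold. The deviation is the change at 80 mg/kg minus 2.67 times the change at 30 mg/kg, so errors at 30 mg/kg and in controls count more than in the direct comparison. By limma with Benjamini-Hochberg adjustment 1676 genes (15.6%) deviated. Of these 1500 were classed as more than proportional, 922 above control (8.6%) and 578 below (5.39%). This class needs only that the deviation and the change at 80 mg/kg share a sign, whether or not that change was called. It therefore includes genes such as RT1-CE10, Osgin1 and Slc25a25, which moved mainly at 30 mg/kg and lay near control at 80 mg/kg. The other 176 deviating genes changed less, 73 above control (0.681%) and 103 below (0.96%). The count depended on the controls and scaling, at 978 with arrays at a common median and 2690 with the controls of all 4 days as dose 0, but 87.3% to 90.9% of the deviating genes were of the first kind under every alternative run. On linear signals 2057 genes deviated, 1869 of them of the first kind. Genes that did not pass were not shown to be proportional.

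Genes that moved almost only at the higher dose included Csrp2, at 3.85 ± 0.52 off the line (limma adjusted p = 6.87e-06), with -0.21 at 30 mg/kg and 3.29 at 80 mg/kg against control. Cyp2c12 deviated by 4.93 ± 1.20 (adjusted p = 0.00406), Tsx by 4.74 ± 0.86 (adjusted p = 0.0002) and Stac3 by -6.02 ± 0.96 (adjusted p = 4.58e-05). Abcc4 gave 3.19 ± 0.45 (adjusted p = 1.01e-05), with 30 mg/kg arrays at 21.4 to 40.5 that overlapped the controls. Among the lists, urea cycle and amino acid genes held the most classed as more than proportional, 23 of 33. Bile acid genes followed with 10 of 24, cytochrome P450 genes with 9 of 23 and male-biased genes with 8 of 16. Aminoacyl-tRNA synthetases and plasma protein genes held 7 each, of 16 and 30. Over all genes the shares were 8.6% above and 5.39% below control. In the animals of day 8, which share no array with day 15, 874 of the 922 genes above control (94.8%) deviated with the same sign, against 61.2% of all genes. Of the 578 below control 553 (95.7%) did so, against 38.8% of all genes. Their median deviations were 0.90 and -0.92 on day 15 and 0.45 and -0.55 on day 8. On day 8, 30 mg/kg changed 25 genes (0.233%) against control, so the sign there mostly follows the change at 80 mg/kg. All genes are not matched to these sets for response at 80 mg/kg, and a matched set was not tested.

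Some genes had most of their change at 30 mg/kg. Fgf21, a hormone of fasting and of amino acid and mitochondrial stress, read 24.2 to 35.0 in controls, 342, 355, 349, 551 and 921 at 30 mg/kg and 810.2, 655, 1429.5, 664 and 511 at 80 mg/kg. Both doses lay far above the controls and overlapped each other: the rise over control was 3.97 at 30 mg/kg (limma adjusted p = 7.57e-11), and the difference between doses was 0.72 ± 0.36 (adjusted p = 0.0885). Its deviation was -5.90 ± 0.85 (adjusted p = 1.01e-05). Ddit4, an mTOR inhibitor induced by stress, read 48.3 to 89.6, 360.3, 407, 644, 610.3 and 562 and 368, 166, 285, 279 and 227 in the same order, with a difference of -0.98 ± 0.45 between doses (adjusted p = 0.0614) and a deviation of -5.74 ± 1.05 (adjusted p = 0.000236). The dose difference in Ddit4 passed after quantile normalization (0.0492), with a common median (0.0405), in a fit of only the compared groups (0.00134) and without 80 mg/kg replicate 1 (0.0468), and that of Fgf21 with array weights (0.00895) and without 30 mg/kg replicate 5 (0.0261). Among the other members of the stress lists called for a rise short of proportion were Gsta3 and Vldlr, named here after their values were seen, and Chac1. The glutathione transferase Gsta3 rose in both dose groups (log2 2.13 at 30 and 3.70 at 80 mg/kg over control, deviation -1.98 ± 0.66, adjusted p = 0.0316). The lipoprotein receptor Vldlr was at 1.63 and 2.51 over control (deviation -1.84 ± 0.62, adjusted p = 0.0344), but its 4 probe sets ran from -0.35 to 1.23 between the doses and 2 were called. Chac1 was at 2.26 and 0.46 over control (deviation -5.57 ± 1.16, adjusted p = 0.000979), with 80 mg/kg not called against control (adjusted p = 0.441).

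Of 88 genes called at least 2-fold at 30 mg/kg against control, 1 had a 95% interval of the dose difference within 1.5-fold either way. It was Tat, tyrosine aminotransferase, a liver gene induced by glucocorticoids and fasting. Its signals were 513, 716, 469.8, 745 and 791 in controls, 1515, 1534, 1444, 1520.1 and 1474 at 30 mg/kg and 1289.8, 1469.7, 1677, 1164 and 1203 at 80 mg/kg. Both doses lay above every control and overlapped each other, with a difference of -0.15 ± 0.21 (95% interval -0.57 to 0.27, limma adjusted p = 0.561), which turned to 0.084 with quantile normalization. Igfbp1 and Ppargc1a, both also induced in fasting and chosen here after their values were seen, had ranges in a like order. Igfbp1 read 974 to 3907 in controls, 6047 to 6669 at 30 mg/kg and 3867 to 6186 at 80 mg/kg, with a dose difference of -0.27 ± 0.35 (95% interval -0.98 to 0.44, adjusted p = 0.532, or 0.0461 in a fit of only the compared groups), which turned to 0.085 with quantile normalization. Ppargc1a, a coactivator of mitochondrial and gluconeogenic genes, read 17.8 to 31.2, 36.9 to 52.0 and 34.4 to 45.4, with a difference of -0.15 ± 0.23 (95% interval -0.60 to 0.31, adjusted p = 0.605).

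In 47 genes (0.438%) all 5 arrays at 30 mg/kg lay above every control and every 80 mg/kg array. The sources used here do not give the clock time or feeding state at sampling, and some of the genes named next are known to follow both, so their part in these levels was not tested. Noct, nocturnin, a phosphatase with a strong daily rhythm in liver, read 717, 672, 589.6, 670.2 and 483 at 30 mg/kg, 247, 98.7, 185, 60.8 and 35.6 at 80 mg/kg and 14.6, 94.7, 45.1, 96.3 and 62.5 in controls. The dose difference was -2.64 ± 0.64 (limma adjusted p = 0.000431), and 80 mg/kg was not called against control (0.94, adjusted p = 0.204). Slc25a25, a mitochondrial ATP-Mg carrier, read 2427, 2364, 3066, 2530.4 and 2256 and 1400.2, 653, 1396, 554 and 105, with controls at 269.9 to 1397 (-2.08 ± 0.48, adjusted p = 0.000254). Irs2, an adaptor of the insulin receptor, read 414, 441, 722, 488 and 483 and 194, 118, 226, 106 and 80.0, with controls at 50.8 to 186 (-1.89 ± 0.40, adjusted p = 7.48e-05). In each of them the controls and the 80 mg/kg arrays overlapped and only the middle dose stood apart. Chac1 read 706, 774, 1692, 1308 and 936 and 514, 308, 333, 279 and 148 (-1.80 ± 0.50, adjusted p = 0.00188), and Coq10b, of the ubiquinone pathway, 1308, 1294, 1781, 1569 and 1139.8 and 455, 495, 502, 417 and 368 (-1.66 ± 0.37, adjusted p = 0.00017). Sik1 (-1.73 ± 0.35) and Nr4a1 (-1.43 ± 0.40), both induced by cyclic AMP and named here after their values were seen, fell as well. Sik1 read 47.5 to 103 in controls, 190.3 to 317 at 30 mg/kg and 27.7 to 124 at 80 mg/kg, and Nr4a1 16.0 to 102, 90.5 to 152 and 31.8 to 52.5, with 1 control above the lowest 30 mg/kg array.

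In 62 genes (0.578%) all 30 mg/kg arrays lay below every control and every 80 mg/kg array. RT1-CE10, a class I major histocompatibility gene, read 113, 104, 63.9, 160.2 and 986 at 30 mg/kg, 1741, 1317, 1117, 1156 and 1167 at 80 mg/kg and 1009 to 1586 in controls. Of the 30 mg/kg animals 4 were low and replicate 5 was near the other groups, and the difference was 2.97 ± 0.98 (limma adjusted p = 0.00894). Its relative RT1-CE16 is not among the 62, since 30 mg/kg replicate 4 was the highest array: it read 112, 116, 54.9, 513 and 256 and 453, 326, 281, 346 and 291 (1.09 ± 0.44, adjusted p = 0.0315) and lost its call with either other scaling (0.0542 and 0.0628) and without any of 5 single arrays (up to 0.174 without 30 mg/kg replicate 3). These genes have near-identical copies and are polymorphic, so which copy a probe set read is uncertain. Their deviations were 7.83 ± 2.29 (adjusted p = 0.0156, or 0.0599 without 30 mg/kg replicate 3) and 3.34 ± 1.03 (adjusted p = 0.0211, or 0.0691 with the controls of all days and 0.0673, 0.0645 and 0.144 without 30 mg/kg replicate 1, 2 or 3). Tap1, the peptide transporter of antigen presentation, read 99.8, 108, 91.1, 89.2 and 129.9 and 171, 186, 165, 131 and 168 (0.67 ± 0.14, adjusted p = 3.76e-05), and the zinc transporter Slc39a7 328, 329.6, 260.0, 258 and 384 and 579.5, 473, 496, 499.9 and 479 (0.71 ± 0.19, adjusted p = 0.0016). RT1-CE10, Tap1 and Slc39a7 lie on chromosome 20, as does Cmtr1, named after its values were seen. Chromosome 20 held 4 of the 62 genes (6.45%) and 317 of all 10725 (2.96%). The chromosome was picked because RT1-CE10, Tap1 and Slc39a7 lie there, and they are counted among the 4. These shares are therefore no test of an excess on it.

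Osgin1, an oxidative stress-induced growth inhibitor, was the oxidative stress gene with the largest positive deviation. It read 549.8, 562, 569.6, 362 and 746 at 30 mg/kg, 962, 1249.6, 1133, 1455 and 2264 at 80 mg/kg and 1809, 1165, 1345, 1095 and 795 in controls, so the 30 mg/kg arrays were lowest and the other groups overlapped. The dose difference was 1.31 ± 0.34 (limma adjusted p = 0.000934) and the deviation 3.21 ± 0.79 (adjusted p = 0.00443, or 0.0566 with the controls of all days). Col4a5, a basement membrane collagen, read 92.6, 104, 84.8, 107 and 68.3 and 154, 137, 129.6, 139 and 119 (0.58 ± 0.16, adjusted p = 0.00134).

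The animals of day 8 give these peaks and dips a second reading, with 4946 genes (46.1%) called between the doses there. Of the 47 genes highest at 30 mg/kg, 40 were lower at 80 than at 30 mg/kg on day 8, 17 of them called (14.6% of all genes were called lower). The 30 mg/kg group again had the highest of the 3 means in 36 of 47 (76.6%), against 16.1% of all genes. Their median difference was -0.87 on day 15 and -0.33 on day 8. Of the 62 genes lowest at 30 mg/kg, 51 were higher at 80 mg/kg on day 8, 22 of them called (31.6% of all genes were called higher), and 30 mg/kg was again lowest in 33 (53.2%), against 29.7% of all genes. The counts of 40 and 51 are by sign alone. The share of all genes with each sign on day 8 was not counted, so these counts have no background here. Single genes did not always follow: on day 8 the dose difference was -0.73 for Noct (limma adjusted p = 0.367), -0.43 for Irs2 (adjusted p = 0.391), -0.12 for RT1-CE10 (adjusted p = 0.934) and 0.19 for Tap1 (adjusted p = 0.252).

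**Figure D5:**
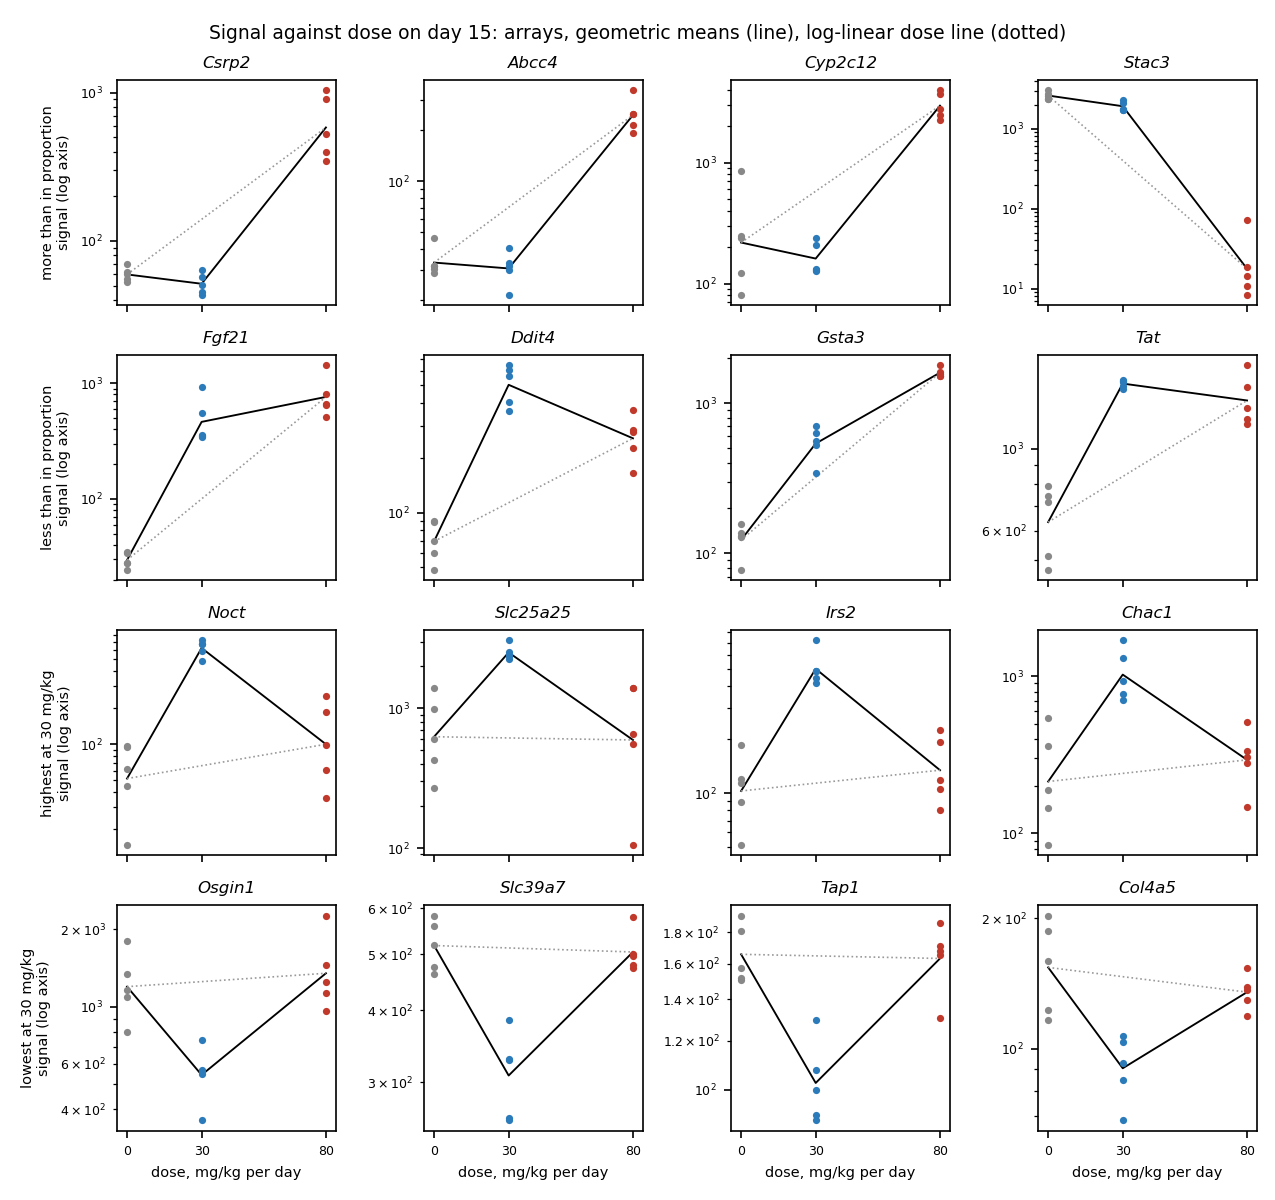
MAS5 signal (vertical log axis, its own range in each panel) against dose in mg/kg per day (horizontal axis) on day 15, 1 point per array, with geometric means joined by a solid line and the log-linear dose line dotted. From the top, the rows show genes that changed more than in proportion (as Stac3, 1715 to 2310 at 30 and 8.29 to 71.6 at 80 mg/kg), less than in proportion, highest at 30 mg/kg (as Noct, 483 to 717 at that dose) and lowest at 30 mg/kg.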

How the data were processed

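Per the labels, liver RNA of each rat was amplified from 500 ng and hybridised to 1 Affymetrix array. Intensity values were deposited by the authors as MAS5 signals on a linear scale, scaled per array, per the submitters' processing notes, and the MAS5 version is not given in the sources used here. Of 31099 probe sets, 20832 had 1 gene symbol, 436 had several and 9831 had none, per GEO's platform annotation. The signals were log2 transformed. Apart from 57 control probe sets, 18727 were kept that exceeded 17.09, the median over every array and probe set, on 4 or more of 57 arrays. Each of 10725 genes took its probe set with the highest mean. Limma 3.58.1 in R 4.3.3 (lmFit, eBayes with trend) was fitted to all 12 groups, which share 1 estimate of spread, with Benjamini-Hochberg adjustment at 0.05. The fit was tested on simulated data.

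The genes named are, first, the 12 largest called rises and the 12 largest called falls between the doses whose arrays did not overlap. Next come up to 3 called members of each list in the direction of its median and up to 2 against it, and the 6 largest called deviations from the dose line either way. Last come the 5 genes most clearly highest and the 5 most clearly lowest at 30 mg/kg, and genes at least 2-fold at 30 mg/kg with a dose difference within 1.5-fold. All but the list members and the genes with a dose difference within 1.5-fold needed a group mean of at least 100 signal units. Genes outside this rule were named after their values were seen. Members and gene lists were chosen with earlier results of these data known. Of 828 list genes 109 were not matched to the array. Alternatives were 2 other scalings, 2 filters, an added constant of 3.31, averaging or separating probe sets of 1 gene, no trend, array weights, fits of fewer groups, a replicate block, other controls, linear signals and leaving out each array. P-values measure the spread between animals of 1 experiment. Promoters came from RefSeq's GRCr8 tables.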

Additional observations from a re-analysis of the deposited data

Results flagged for a closer look

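Of 387 sets of 5 arrays from 129 of the named genes, 18 (4.7%) held a highest or lowest array set apart by more than Dixon's limit at 5%, and chance flags about 1 in 20. On the control arrays, replicate 1 was apart for Spink1l (2657), Abcc4 (46.3) and C9 (5269), replicate 2 for Gucy1b2 (91.7) and Ggt1 (8.39), replicate 3 for Sdf2l1 (1086), replicate 4 for Dnajc3 (1449.5) and replicate 5 for RT1-CE16 (254). Among the 30 mg/kg arrays, replicate 4 was apart for Hadhb (1588), Thrsp (1274) and Scd (1129), and replicate 5 for Slco1a4 (1721) and Onecut2 (418). At 80 mg/kg, replicate 1 was apart for Lonp1 (987), Asl (1992) and Slc39a7 (579.5), replicate 4 for Gars1 (1455) and replicate 5 for Ttk (42.7). Each value is the MAS5 signal of that array. The 3 flagged 30 mg/kg values of replicate 4 are all of genes of fat metabolism. The part of the animal or of the array in these values was not tested.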

How the results depend on the processing

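The count of genes called between the doses stayed within 1.5 times 5921 under every alternative run and was 5547 to 5827 with 1 array left out. Deviating genes numbered 1676, against 978 with arrays shifted to a common median and 2690 with the control arrays of all 4 days as the zero dose. Those classed by sign as more than proportional numbered 1500, against 872 and 2418. Those classed as less than proportional numbered 176, against 106 and 272, and 312 with array weights. With 1 array left out the counts were 1150 to 1786, 1041 to 1623 and 109 to 198. For 129 of the named genes, 2523 of 2561 values kept direction and side of the threshold, 28 lost the call, 8 gained it and 2 turned. The 2 that turned, both with quantile normalization, were uncalled dose differences, Tat (0.084) and Igfbp1 (0.085). List counts stayed within 1.5 times the main count in 1385 of 1476 cases. The causes were not tested.

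Replicate numbers are shared by the dose groups, but same-numbered arrays of 30 and 80 mg/kg deviated together at correlations of -0.035 to 0.073 over genes, and 1 of 5 matched its own number best. With the replicate block 5846 genes were called between the doses and 1421 deviated. Signals near the floor limit the folds of Acot1, Gucy2c, Ttk and Il1rn, and of other genes with low signals. With the added constant the differences were 3.64 for Shc4, 2.23 for Gpx2, 1.87 for Cldn7, 3.57 for Tsx and 1.51 for Ddit4l. Having 5 animals a dose limits every result.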
